A study of Mus musculus with 24 samples.

Results

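The genes described here carry cholesterol through its life in the liver: the enzymes that make it, the proteins that sense it, those that take it up or move it inside the cell, and those that export it. A list of 33 genes was matched by symbol to an array table of 24 mouse livers, and where a gene had several probe sets the one with the highest mean over the 24 arrays was used. Of the 33, 30 were found among 18820 genes with a single symbol. They were 17 synthesis enzymes, 4 sensing genes, 4 uptake and transport genes and 5 export and lipoprotein genes. Acat2, Soat1 and Soat2 were not analysed here.

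Cholesterol is built from acetyl-CoA by way of mevalonate, isoprenoids and squalene, which is closed into lanosterol and then trimmed to cholesterol. When sterols run low in the endoplasmic reticulum, SCAP escorts the transcription factor SREBP2 to the Golgi for activation, and SREBP2 then switches on the enzymes of the pathway and sterol uptake, whereas INSIG proteins hold SCAP back when sterols are plentiful. In the same sterol-rich state the LXR receptors raise export genes, among them the ABCG5/ABCG8 pair, which pumps sterols from hepatocytes into bile, the main way out of the body.

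Each liver came from a different mouse, and 8 groups held 3 livers each. At 52 weeks of age, untreated livers labelled NEMO/JNKΔhepa triple knockout were set against untreated livers labelled control. Livers labelled JNKΔhepa double knockout were set against livers labelled control 40 days after diethylnitrosamine (DEN), a carcinogen activated in hepatocytes, and again 28 days after bile duct ligation (BDL), a surgical block of bile flow. At 8 weeks, untreated livers labelled NEMO/JNK1Δhepa double knockout were set against livers labelled NEMO knockout, and no control of that age was measured. Per the labels' protocols the lines were bred from Alb-Cre mice, in which the recombinase is made by hepatocytes, and Jnk2-deficient mice, both on C57BL/6. The JNK knockout joined a floxed Jnk1 to a Jnk2-/- background, and NEMO f/f and NEMOΔhepa mice are named as controls of the NEMO/JNK line. The sources used here name neither the alleles of each control mouse nor how old the DEN and BDL mice were. Values are log2 expression levels of whole liver tissue, in which fewer cells of a type and less RNA per cell cannot be told apart.

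The arrays had medians between 4.52 and 4.66, and arrays of a group correlated with r from 0.966 to 0.987. Mapk8, which encodes JNK1, had a lower mean in the JNK-deficient group of each pairing, by differences of −0.87 at 52 weeks, −0.64 after DEN, −1.02 after BDL and −0.61 at 8 weeks. Mapk9, which encodes JNK2, had group means of 8.34 and 8.39 at 8 weeks but from 2.96 to 3.24 in the other 6 groups, those labelled control included, so the livers labelled control do not serve as a contrast for this transcript. Ikbkg, which encodes NEMO, was 6.45 in the 52-week knockouts against 7.3 in their controls, while both 8-week groups, at 7.07 and 6.92, lay near the 6.98 and 7.02 of JNK knockouts that keep NEMO by label. The hepatocyte markers, 8 measured of 10 listed, had a mean between 11.96 and 12.49 in every liver. The mouse identifiers fall into series: all mice share 1 series except the NEMO livers at 8 weeks and ligated control livers 1 and 2, which carry other series.

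The start regions of the synthesis genes were read for letters they share. RefSeq sequence of assembly GRCm38.p6, from 250 bases before to 50 bases after each start, was at hand for 26 of the 33 listed genes, 15 of them synthesis enzymes. The CCAAT box, the letters CCAAT on either strand, to which the factor NF-Y binds next to SREBP sites, occurred in 14 of 15 synthesis genes and in 8 of the 11 others, against 41.1% of 27025 genes. The GC box GGGCGG, bound by SP1, occurred in 14 of the 15 on either strand and in 7 of the 11 others, against 38.2% of all genes. The sterol regulatory element searched as TCACNCCAC was found in 1 member, Hmgcs1 (1.44% of all genes), and the looser TCACNCNAC, which includes it, in Hmgcs1 and Nsdhl (3.15%). The 170 bases before the start are printed for the 5 synthesis genes with the largest fall at 52 weeks among those with 1 start region, 5′ to 3′ in the direction of the gene. Capitals mark CCAAT or its reverse complement ATTGG and, in Hmgcs1, also the sterol regulatory element.
Tm7sf2 (chr19:6067851-6068020, minus strand): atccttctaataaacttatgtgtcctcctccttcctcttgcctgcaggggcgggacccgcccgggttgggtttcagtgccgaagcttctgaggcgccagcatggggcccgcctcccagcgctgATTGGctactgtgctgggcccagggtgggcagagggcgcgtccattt
Idi1 (chr13:8885436-8885605, plus strand): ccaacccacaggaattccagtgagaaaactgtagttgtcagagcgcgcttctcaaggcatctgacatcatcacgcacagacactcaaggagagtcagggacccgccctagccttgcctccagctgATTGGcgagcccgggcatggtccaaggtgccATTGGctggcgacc
Mvd (chr8:122443423-122443592, minus strand): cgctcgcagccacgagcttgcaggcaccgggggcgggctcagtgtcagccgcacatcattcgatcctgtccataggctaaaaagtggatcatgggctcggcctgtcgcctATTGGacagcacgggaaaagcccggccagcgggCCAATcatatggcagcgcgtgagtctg
Msmo1 (chr8:64733579-64733748, minus strand): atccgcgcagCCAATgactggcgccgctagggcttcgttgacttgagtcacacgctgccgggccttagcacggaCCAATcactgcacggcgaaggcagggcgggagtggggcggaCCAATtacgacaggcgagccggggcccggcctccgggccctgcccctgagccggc
Hmgcs1 (chr13:119690181-119690350, plus strand): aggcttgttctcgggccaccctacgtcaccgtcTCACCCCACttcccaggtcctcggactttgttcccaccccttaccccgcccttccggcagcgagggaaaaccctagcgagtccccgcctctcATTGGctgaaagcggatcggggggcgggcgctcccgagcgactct
The CCAAT box nearest the start began 47 bases before it in Tm7sf2, 14 in Idi1, 27 in Mvd, 55 in Msmo1 and 45 in Hmgcs1. A match describes letters, not a bound site.

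Abcg5 and Abcg8 stand head to head, and their levels are described together further on. The 109 bases between their starts, on the plus strand of GRCm38.p6, hold neither CCAAT nor its reverse complement. Both genes still have the box in their searched regions and were counted with it above. In Abcg5 it begins at the first base of the gene, directly beside this stretch. In Abcg8 the match that begins at −114 from its start is this same box, read on the other strand. The box thus lies in the searched regions of both genes. The Abcg8 match at −175 lies further out, beyond that end of the stretch.
Abcg5-Abcg8 (chr17:84683012-84683120): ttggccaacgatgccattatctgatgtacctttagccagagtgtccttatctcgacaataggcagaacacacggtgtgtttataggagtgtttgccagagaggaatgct

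At 52 weeks most synthesis enzymes fell, and the other roles did not move as a block. In the livers labelled NEMO/JNK triple knockout, 13 of the 17 synthesis enzymes fell and 0 rose, with a median log2 difference of −0.82, whereas both subunits of the sterol pump rose, Abcg5 by 1.85 and Abcg8 by 1.42. A gene was called when its adjusted p from limma, with Benjamini-Hochberg adjustment across the 18820 genes, was under 0.05. By that rule 4 of 30 members rose, near the 13.6% of all genes that rose, and 15 fell, where 7.9% of all genes fell. The median difference was −0.48 over the 30 members and −0.05 over all genes. The balance of all genes moved with scaling, from 2562 higher and 1486 lower as deposited to 1570 higher and 8942 lower with each array centred on its median, and to 2115 and 2426 after quantile normalisation. Centring moved the median of all genes to −0.371 and that of the synthesis enzymes to −1.15. It subtracts 1 value from every gene of an array, so the gap between these medians could not change. After quantile normalisation the 2 medians were −0.047 and −0.73.

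**Figure D1:**
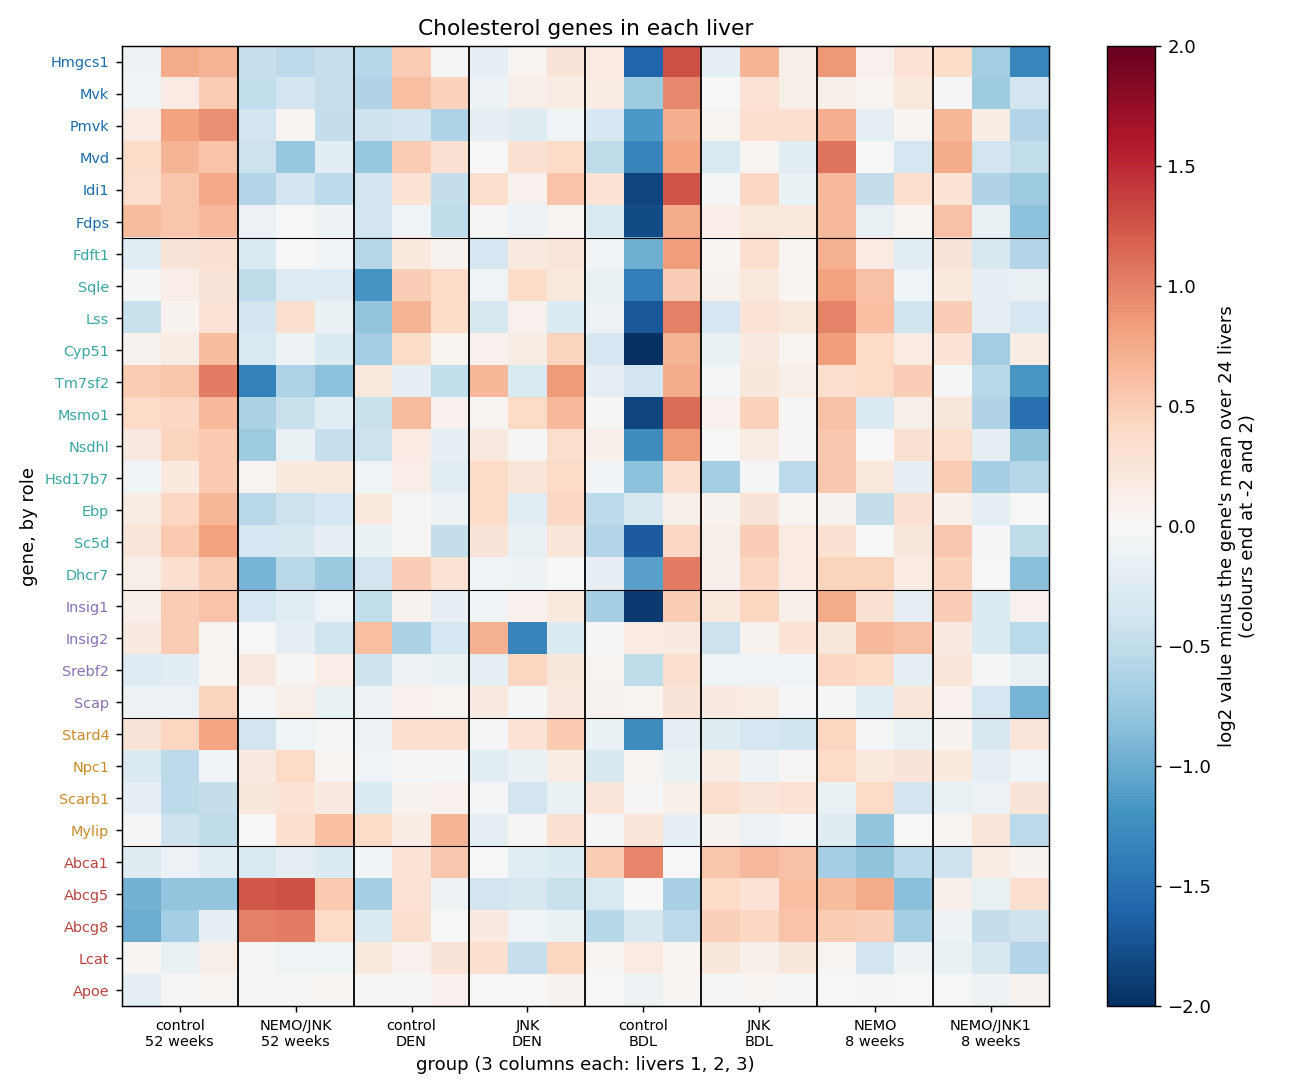
Log2 expression of each of the 30 genes (rows, ordered and coloured by role) in each of the 24 livers (columns, 3 per group), with the gene's mean over all livers subtracted; red is above and blue below that mean, and colours end at −2 and 2. Most synthesis rows are blue across the 3 NEMO/JNK livers at 52 weeks and run from blue in liver 2 to red in liver 3 among the ligated controls.

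All 6 measured enzymes of the mevalonate steps fell at 52 weeks (median −0.91). Hmgcs1, which condenses acetyl-CoA units into HMG-CoA, was at 9.67, 10.51 and 10.44 in the 3 control livers and at 9.31, 9.24 and 9.31 in the knockouts. No knockout liver reached the lowest control, and Hmgcs1 fell by 0.92 (SE 0.21, adjusted p = 0.0148). Mvk and Pmvk phosphorylate mevalonate in turn. Mvk was at 6.62, 6.84 and 7.19 in controls and 6.19, 6.29 and 6.22 in knockouts, and fell by 0.65 (SE 0.16, adjusted p = 0.0179). Pmvk was at 7.98, 8.62 and 8.73 against 7.45, 7.86 and 7.34, and fell by 0.9 (SE 0.22, adjusted p = 0.0194). In both genes control liver 1 was the lowest of its group and still stood above every knockout.

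The later mevalonate steps fell as well. Mvd, which decarboxylates mevalonate diphosphate to isopentenyl diphosphate, was at 6.65, 6.97 and 6.85 in controls and 5.86, 5.52 and 6.07 in knockouts, and fell by 1.01 (SE 0.16, adjusted p = 0.00321). Idi1, which isomerises that unit, lay from 9.34 to 9.74 in controls and from 8.41 to 8.61 in knockouts, and its second probe set gave a difference of −1.01 beside the −1.05 of the brighter one (SE 0.14, adjusted p = 0.00118). Fdps, which joins the units into farnesyl diphosphate, was at 9.17, 9.1 and 9.19 in controls and 8.42, 8.54 and 8.44 in knockouts. Its SDs of 0.05 and 0.06 were small beside the fall of 0.69 (SE 0.11, adjusted p = 0.0029). In none of the 3 genes did the groups overlap. The share of all genes whose groups stood apart at 52 weeks was not counted. By unadjusted limma p under 0.05, 35.4% of all genes passed at that age.

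Among the 11 enzymes from squalene to cholesterol, 7 fell at 52 weeks (median −0.79). Fdft1, which makes squalene, differed by −0.22 (SE 0.17, adjusted p = 0.375; centred −0.55, 0.0231), and Lss, which closes it to lanosterol, by −0.04 (95% interval −0.55 to 0.48). Sqle, the epoxidase between them, was at 8.43, 8.6 and 8.72 in controls and at 7.95, 8.2 and 8.21 in knockouts, and fell by 0.46 (SE 0.13, adjusted p = 0.0371). Cyp51, the lanosterol demethylase, differed by −0.5 (SE 0.16) without overlap of the groups, but its adjusted p of 0.0572 missed the threshold. It was called without control 1 (0.0447), with arrays centred (0.00609), with dim genes filtered out (0.0432) and with array weights (0.0297). Hsd17b7, a ketosteroid reductase that acts later, beside Msmo1 and Nsdhl, differed by −0.07 (95% interval −0.43 to 0.29).

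The other enzymes of the branch fell. Tm7sf2, a sterol C14 reductase, was at 9.3, 9.35 and 9.83 in controls and 7.45, 8.18 and 7.98 in knockouts. Every knockout stood more than 1 log2 unit below the lowest control, and the fall of 1.62 (SE 0.21, 3.08-fold, adjusted p = 0.00118) was the largest among the 30 members. Msmo1, which removes methyl groups from the sterol, was at 10.28, 10.3 and 10.53 against 9.24, 9.43 and 9.65, and fell by 0.93 (SE 0.14, adjusted p = 0.00245). Nsdhl, which works on the same carbon, was at 9.59, 9.86 and 9.94 against 8.71, 9.26 and 8.95, and fell by 0.82 (SE 0.17, adjusted p = 0.00889). Knockout liver 1 was the lowest of its group in all 3 genes.

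Ebp, Sc5d and Dhcr7 carry out the last rearrangements of the ring double bonds. Ebp was at 9.48, 9.74 and 9.99 in controls and 8.78, 8.9 and 8.98 in knockouts, and fell by 0.85 (SE 0.15, adjusted p = 0.00469). Sc5d was at 11.01, 11.3 and 11.57 against 10.44, 10.45 and 10.61, and fell by 0.79 (SE 0.16, adjusted p = 0.00774). Dhcr7, whose product is cholesterol, was at 8.93, 9.14 and 9.32 against 7.89, 8.26 and 8.08, and the fall was 2.07-fold. Liver by liver, the median difference of the 17 enzymes from the control mean was −0.9, −0.62 and −0.73 in knockouts 1, 2 and 3. In livers 1 and 3 all 17 lay below the control mean, and in liver 2, 16 did, the exception being Lss.

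**Figure D2:**
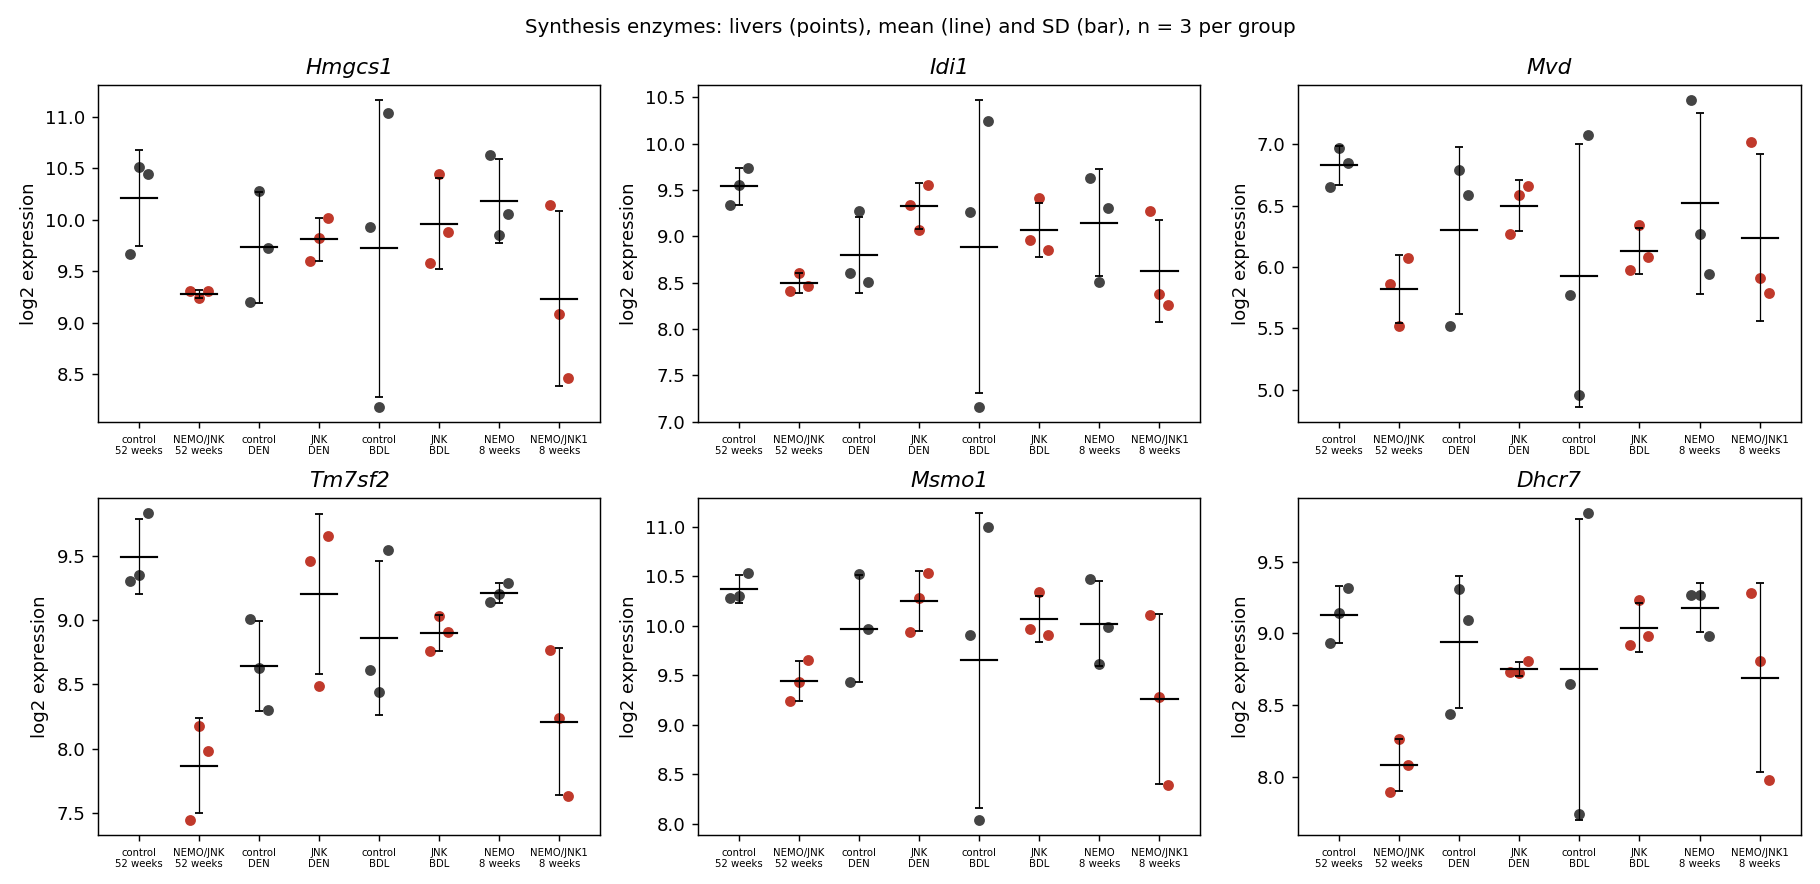
Log2 expression (vertical axis) of 6 synthesis enzymes in the 8 groups (horizontal axis); points are livers, lines means and bars SD, n = 3, with the knockout or combined knockout of each pairing in red. In all 6 genes the 3 NEMO/JNK livers lie below the 3 controls at 52 weeks, and in all except Tm7sf2 the ligated controls have the widest bar, with an SD from 1.05 in Dhcr7 to 1.58 in Idi1.

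Of the 4 sensing genes, 1 changed at 52 weeks. Insig1, itself a target of SREBP2, was at 10.57, 10.97 and 11.04 in controls and 10.12, 10.25 and 10.39 in knockouts, without overlap, and fell by 0.6 (SE 0.15, adjusted p = 0.0236). Insig2, the second retention protein, differed by −0.44 (SE 0.16, adjusted p = 0.0837), and with arrays centred it was called at −0.76 (adjusted p = 0.00449). Srebf2, which encodes SREBP2, differed by 0.26 (SE 0.13, adjusted p = 0.182) and Scap by −0.1 (SE 0.17), so neither differed beyond the test's threshold. With arrays centred the value of Srebf2 was −0.07.

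Uptake and transport genes went both ways at 52 weeks, with 2 of 4 risen and 1 fallen. Scarb1, the receptor that takes cholesterol from HDL, was at 10.38, 10.02 and 10.07 in controls and 10.78, 10.82 and 10.73 in knockouts, and rose by 0.62 (SE 0.13, adjusted p = 0.011). The groups stood apart, but with each array centred the difference was 0.29 and the call ended (adjusted p = 0.115). Mylip, a ubiquitin ligase that marks lipoprotein receptors for degradation, was at 7.05, 6.67 and 6.57 against 7.08, 7.42 and 7.68, and rose by 0.63 (SE 0.18, adjusted p = 0.0417). Control liver 1 and knockout liver 1 were nearly level. The call held in 5 of 13 other settings, and ended with arrays centred (0.3, adjusted p = 0.192), after quantile normalisation (0.105) and with a replicate block (0.0772). Stard4, a carrier of cholesterol between membranes and a target of SREBP2, was at 8.01, 8.18 and 8.54 against 7.37, 7.67 and 7.71, and fell by 0.66 (SE 0.16, adjusted p = 0.0214). Npc1, which moves cholesterol out of lysosomes, differed by 0.5 (SE 0.15, adjusted p = 0.0505), just outside the threshold. It was called without control 3 (0.0375), with all 24 arrays (0.019) and after quantile normalisation (0.0289). The call also came with dim genes filtered out (0.0373) and with the mean of probe sets (0.0497), and in no other setting.

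Of the 5 export and lipoprotein genes 2 rose, and the other 3 differed by less than 0.1 on the deposited scale. Abcg5 was at 8.85, 9.01 and 9.02 in controls and 11.04, 11.07 and 10.32 in knockouts. Knockout liver 3 was the lowest of its group, yet it stood more than 1 log2 unit above every control, and the rise was 3.61-fold (SE 0.2 log2, adjusted p = 0.000478). Abcg8 was at 8.51, 8.81 and 9.34 against 10.51, 10.52 and 9.9, with liver 3 again the lowest knockout, a 2.68-fold rise (SE 0.24 log2, adjusted p = 0.00371). Abca1, which loads cholesterol onto nascent HDL, differed by −0.06 (95% interval −0.31 to 0.2). Lcat, which esterifies cholesterol in plasma lipoproteins, differed by −0.08 (−0.35 to 0.19), and Apoe, a lipoprotein ligand for hepatic receptors, by 0.06 (−0.2 to 0.33). With arrays centred Abca1 was called at −0.38 (adjusted p = 0.0251) and Lcat at −0.41 (adjusted p = 0.0328). Apoe lay between 12.91 and 13.17 in every liver, near the highest values of the arrays, 13.17 to 13.48.

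**Figure D3:**
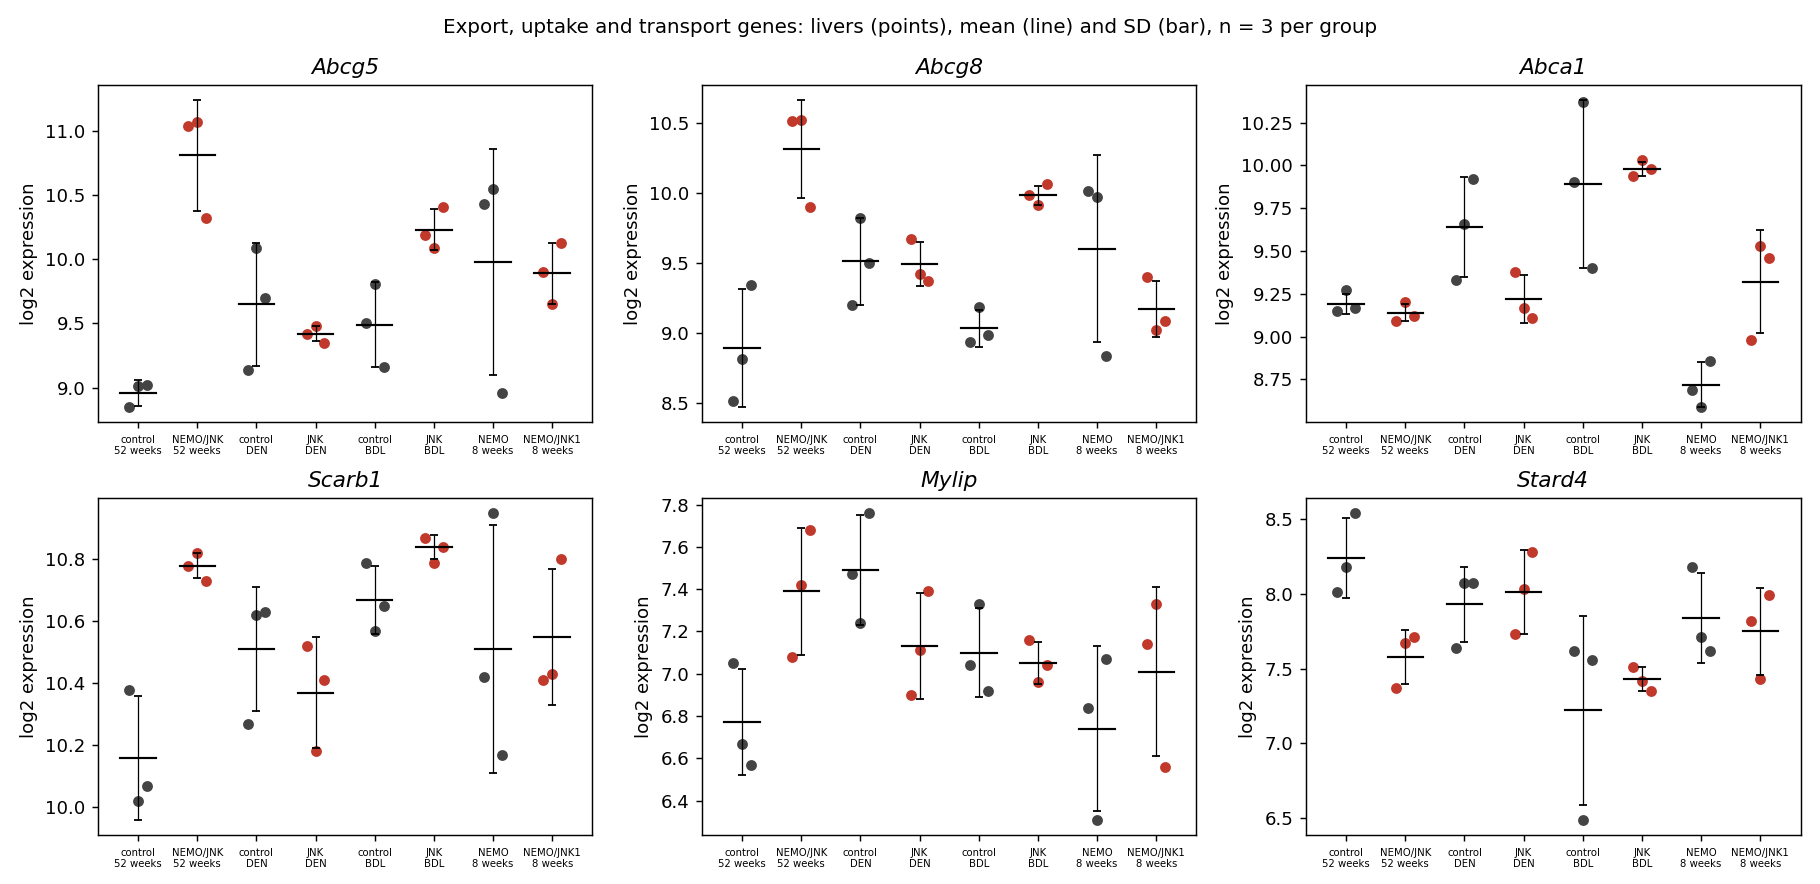
Log2 expression (vertical axis) of 6 export, uptake and transport genes in the 8 groups (horizontal axis); points are livers, lines means and bars SD, n = 3, with the knockout or combined knockout of each pairing in red. Abcg5 and Abcg8 are higher in the NEMO/JNK livers at 52 weeks and in the JNK livers after BDL than in every paired control, while Stard4 is lower in the NEMO/JNK livers.

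Of the 19 calls at 52 weeks, those of Tm7sf2, Ebp, Abcg5 and Abcg8 held in each of the 13 other settings run. Fitting all 24 arrays together ended 14 of the 19 (adjusted p from 0.0511 to 0.423). Leaving out 1 liver ended the call of 7 genes. Hmgcs1 lost it without control 3 (0.0538), and Mvk without knockout 1 or 3 (up to 0.0599). Pmvk lost it without control 2, control 3, knockout 1 or knockout 3 (up to 0.0751), and Stard4 without control 3 or knockout 1 (up to 0.0772). Insig1 was not called without control 2, control 3, knockout 1 or knockout 2 (up to 0.0831), nor Mylip without control 2, control 3, knockout 2 or knockout 3 (up to 0.141). Sqle held only when control 1 was the liver left out (up to 0.129 otherwise). No call changed sign.

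Markers of other cell types moved in the same livers. All 9 measured cholangiocyte markers rose at 52 weeks, and their mean level was 4.82 to 5.33 in control livers and 7.93 to 8.34 in knockouts. Of 14 macrophage markers 12 rose, with means of 7.36 to 7.98 in controls and 8.46 to 9.69 in knockouts. Of 6 lymphocyte markers 4 rose, with means of 4.27 to 5.45 and 5.33 to 6.3. Among 10 stellate cell and fibroblast markers 2 rose and 1 fell, among 6 endothelial markers 1 rose and 1 fell, and 0 of 4 adipocyte markers changed. The part of these cells in the results was not tested. Of 8 hepatocyte markers 0 changed, and their mean was 12.15 to 12.43 in controls and 12.3 to 12.41 in knockouts. Several of them, such as Alb at 12.75 to 13.26 in these 6 livers, lie near the highest values of the arrays.

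Sterol genes outside the 30 were followed through a list of 25, of which 19 were measured. At 52 weeks 3 rose, where 13.6% of all genes rose, and 3 fell, where 7.9% of all genes fell. Abcg1, a cholesterol transporter abundant in macrophages, was at 6.27, 6.67 and 5.94 in controls and 8.26, 8.16 and 8.1 in knockouts, and rose by 1.88 (SE 0.18, adjusted p = 0.000267). Npc2, the soluble partner of NPC1 in lysosomes, rose by 0.56 (SE 0.14, adjusted p = 0.0197), and Cyp39a1, an oxysterol hydroxylase of bile acid synthesis, by 1.03 (SE 0.27, adjusted p = 0.0243). Acly, which supplies cytosolic acetyl-CoA, was at 9.91, 10.7 and 10.65 against 9.16, 9.24 and 9.49, and fell by 1.13 (SE 0.21, adjusted p = 0.00642). Ces1d, a lipid esterase, fell by 1.42 (SE 0.19, adjusted p = 0.00117), and Acat1, a mitochondrial thiolase, by 0.42 (SE 0.12, adjusted p = 0.0438). The list's median was 0.16.

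**Figure D4:**
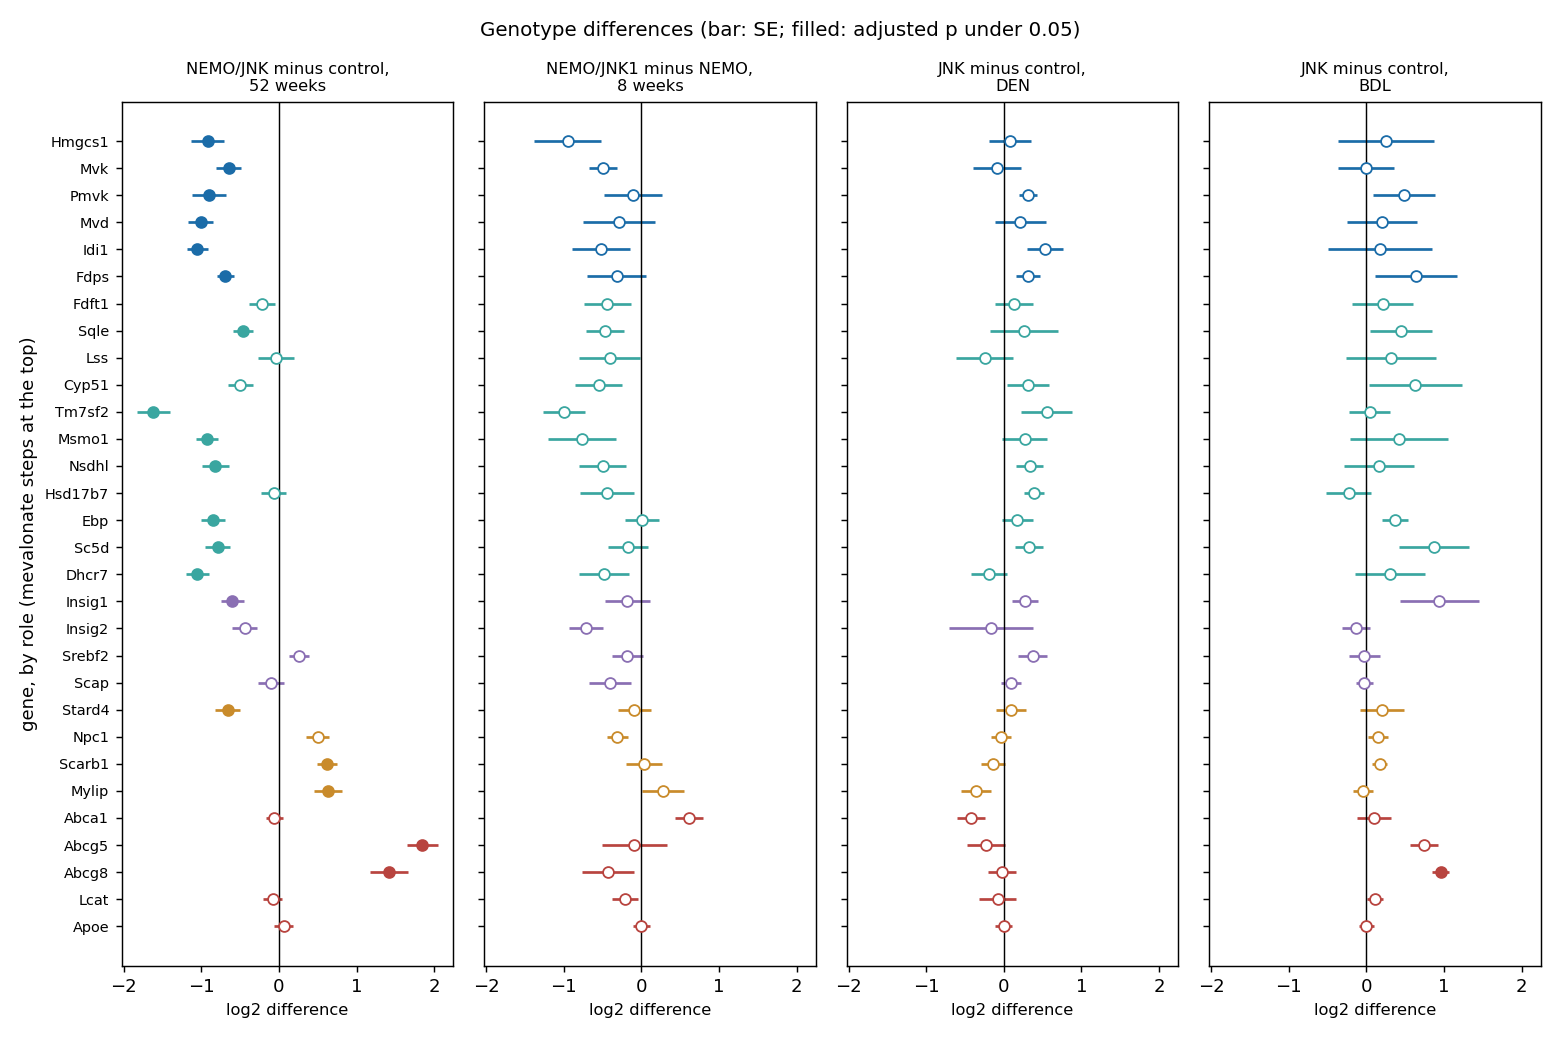
Log2 difference between genotypes (horizontal axis) for the 30 genes (vertical axis, ordered and coloured by role) in the 4 experiments; bars are SE, and filled points passed the adjusted p of 0.05. Filled points are 19 at 52 weeks and 1, Abcg8, after BDL; at 8 weeks 25 of 30 points lie left of 0 and after BDL 25 of 30 lie right of it.

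At 8 weeks the livers labelled NEMO/JNK1 had lower means than those labelled NEMO for 16 of 17 synthesis enzymes, but 0 members were called, as were 0 of all genes (0%). By unadjusted limma p under 0.05, 1 member was higher and 3 were lower, where 7.66% of all genes passed in either direction. The groups did not overlap for 1 member that was higher, where 6.71% of all genes were, and for 4 that were lower, where 7.66% were. Tm7sf2 was among them, at 9.14, 9.2 and 9.29 in NEMO livers and 8.77, 8.24 and 7.63 in NEMO/JNK1 livers (difference −1, SE 0.27, adjusted p = 0.602). The others were Mvk at −0.5 (SE 0.18), Insig2 at −0.71 (SE 0.22) and Npc1 at −0.31 (SE 0.14). Abca1 was the one that was higher, at 8.69, 8.59 and 8.86 against 8.98, 9.53 and 9.46 (difference 0.61, SE 0.18, adjusted p = 0.602).

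The synthesis enzymes of the 3 NEMO/JNK1 livers were unlike one another. Liver 1 had 12 of 17 above the NEMO mean, with a median of 0.09, and was the highest of its group in all 17. Liver 2 had all 17 below that mean (median −0.6), and liver 3 had 16 below (median −0.78). Hmgcs1, for example, was at 10.14, 9.08 and 8.46 in these livers against 10.63, 9.85 and 10.05 in the NEMO group. The median difference of the 17 was −0.47, and with 1 liver left out it ran from −0.68 without NEMO/JNK1 liver 1 to −0.26 without NEMO/JNK1 liver 3. It was −0.28 without NEMO liver 1, and in both of these last fits 14 of 17 were negative. The 14 macrophage markers had means of 9.13, 10.48 and 7.7 in these livers and 8.22 to 8.66 in NEMO livers, and their part was not tested. Each group at this age is of its own mouse series, so series and genotype cannot be told apart.

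The 52-week and 8-week pairings share no liver. Of 17 synthesis enzymes 16 had a negative difference in both, the exception being Ebp, at −0.85 and 0.01. Among all genes 55.3% were negative at 52 weeks and 50.6% at 8 weeks. The enzymes are not independent of one another, and at 8 weeks NEMO/JNK1 liver 1 did not share the direction. Abcg5 did not follow, with 1.85 at 52 weeks and −0.09 (95% interval −1.09 to 0.92) at 8 weeks, where the NEMO livers themselves stood at 10.43, 10.55 and 8.96. Abcg8 was alike, at 10.01, 9.97 and 8.83 in the NEMO livers, with NEMO liver 3 low for both genes. Whether differences changed between the ages was not tested, since genotypes and ages differ together.

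After DEN 0 members, and 0% of all genes, were called by limma between livers labelled JNK knockout and control. By unadjusted limma p under 0.05 there were 2 members higher and 1 lower, where 4.15% of all genes passed, and the smallest adjusted p of any gene was 0.883. Pmvk and Hsd17b7 were the 2 members whose groups stood apart, both higher in knockouts, where 3.26% of all genes stood apart higher, and 0 stood apart lower, against 6.21%. Pmvk was at 7.39, 7.44 and 7.2 in controls and 7.65, 7.57 and 7.74 in knockouts (difference 0.31, SE 0.12). Hsd17b7 was at 8.73, 8.94 and 8.6 against 9.19, 9.05 and 9.2 (difference 0.39, SE 0.13). For 14 of 17 synthesis enzymes the difference was above 0, with a median of 0.27, and the highest upper ends of the 95% intervals were 1.34 in Tm7sf2 and 1.3 in Sqle. Control liver 1 was the lowest for 10 of the 17, as in Sqle at 7.28 beside 8.96 and 8.87. Without it 9 were above 0 and 7 below, with a median of 0.01, and without control liver 2 the median was 0.43. The export pair differed by −0.23 (SE 0.24) for Abcg5 and −0.02 (SE 0.18) for Abcg8.

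After BDL the export pair was higher in JNK knockouts, and Abcg8 was the 1 member called, where 0.797% of all genes rose and 0.558% fell. Abcg8 was at 8.93, 9.18 and 8.98 in controls and 9.98, 9.91 and 10.06 in knockouts. All 3 knockouts lay at least 0.7 above every control, and Abcg8 rose by 0.96 (SE 0.11, 1.94-fold, adjusted p = 0.00824). Abcg5 was at 9.5, 9.81 and 9.16 against 10.19, 10.09 and 10.41, also without overlap, with a difference of 0.74 (SE 0.18, adjusted p = 0.103). These were the 2 members that stood apart higher, where 9.95% of all genes did, and 0 stood apart lower, where 10.7% did. The Abcg8 call ended without JNK liver 1 (adjusted p = 0.053) or JNK liver 2 (0.0503), with all 24 arrays (0.117), and with mouse series as a term (0.0509), a fit that leaves 1 control liver against the 3 knockouts and put the difference at 1.01. Without control liver 2 Abcg5 was called too, at 0.9 (adjusted p = 0.0378). Of 9 cholangiocyte markers 1 rose, with means of 5.63 to 6.38 in controls and 6.71 to 7.26 in knockouts, and of 14 macrophage markers 1 rose (8.71 to 8.96 and 8.98 to 9.24). Of 10 stellate cell and fibroblast markers 1 rose and 1 fell, and 1 of 6 endothelial and 1 of 4 adipocyte markers fell. The part of these cells was not tested.

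The synthesis enzymes were 16 of 17 above 0 in JNK knockouts after BDL, by a median of 0.3, with no call. That direction turned on single control livers. Without control liver 3 all 17 were above 0 and the median was 0.86 (smallest adjusted p 0.062). Without control liver 2, 14 of 17 were below 0 and the median was −0.25 (0.297). With mouse series as a term, 16 were below 0, with a median of −0.74 (0.167). Sc5d and Insig1 had the largest differences among synthesis and sensing genes, at 0.87 (SE 0.45, adjusted p = 0.437) and 0.94 (SE 0.51, adjusted p = 0.466).

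The 3 ligated control livers spanned a wide range of synthesis expression, described here after it was seen in the values. The mean of the 17 enzymes was 8.63, 7.5 and 9.58 in livers 1, 2 and 3, a range of 2.08, and it was 8.73, 9.08 and 8.84 in the ligated JNK knockouts, a range of 0.35. In the other 6 groups the range lay between 0.23 and 0.97. Liver 3 was the highest of the 3 controls for all 17 enzymes and liver 2 the lowest for 16. The median SD of the enzymes in this group was 1.05, beside 0.16 over all genes, and 10 of 17 had an SD over 1, as did 0.595% of all genes. The genes are not independent of one another, and the difference in spread between the ligated groups was not tested.

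**Figure D5:**
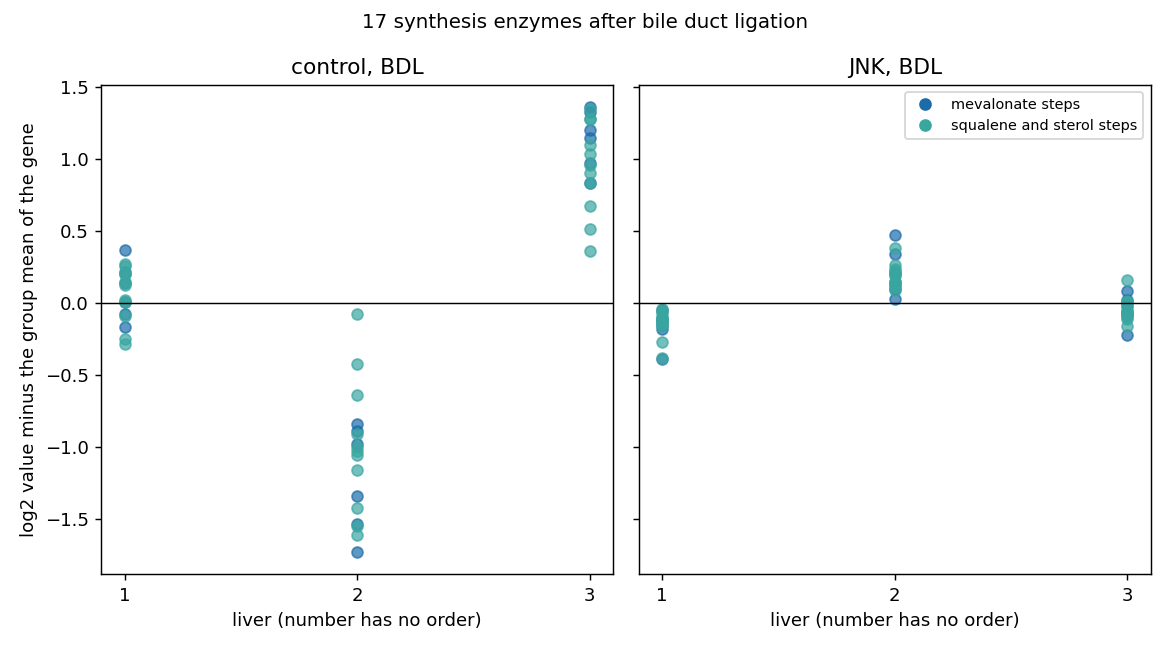
Log2 value minus the gene's group mean (vertical axis) for the 17 synthesis enzymes in ligated control livers (left) and ligated JNK livers (right) 1, 2 and 3 (horizontal axis; the numbers have no order); each point is 1 gene, coloured by branch. In control liver 3 all 17 points are the highest of their gene, and in control liver 2, 16 are the lowest, while the JNK livers lie close together.

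Idi1 spanned 9.26, 7.16 and 10.25 in ligated control livers 1, 2 and 3, an 8.54-fold ratio of highest to lowest. Msmo1 was at 9.91, 8.04 and 11 (7.75-fold), Hmgcs1 at 9.93, 8.18 and 11.04 (7.24-fold) and Cyp51 at 8.67, 6.85 and 9.68 (7.13-fold). The narrowest enzyme was Ebp, at 8.8, 9.01 and 9.45, and it was the one whose lowest liver was not liver 2. Insig1 followed the enzymes at 9.8, 8.55 and 10.97, and Srebf2 did so over a smaller span at 8.03, 7.47 and 8.3. Stard4 was low in liver 2 (6.49) but alike in livers 1 and 3 (7.62 and 7.56). Abca1 and Abcg5 ran the other way, highest in liver 2 at 10.37 and 9.81 and lowest in liver 3 at 9.4 and 9.16. Apoe and Lcat each spanned 1.1-fold, and Abcg8 1.19-fold. Acly, outside the 30, was at 9.54, 8.56 and 10.52.

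The same 3 livers were close in hepatocyte markers, with means of 12.49, 12.38 and 12.43. Macrophage markers had means of 8.96, 8.96 and 8.71, cholangiocyte markers 6.38, 6.31 and 5.63, and stellate cell and fibroblast markers 9.01, 8.4 and 8.54. Livers 1 and 2 are of the same mouse series, and liver 3 is of the series of the JNK knockouts. The means of the 17 enzymes in livers 1, 2 and 3 were 8.63, 7.5 and 9.58. The part of cell types or series in this spread was not tested. With 1 liver in the second series, series and animal cannot be told apart.

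BDL and DEN livers were also compared within a genotype; these comparisons and those between genotypes after each injury share livers. In livers labelled control 0 members were called, where 2.48% of all genes were called in either direction, and by unadjusted limma p under 0.05 0 were higher and 2 lower, where 19.1% of all genes passed. These were Stard4, at −0.7 (SE 0.3, adjusted p = 0.257), and Abcg8, at −0.48 (SE 0.17, adjusted p = 0.194). The median synthesis difference of −0.13 became −0.67 without ligated control 3 and 0.41 without ligated control 2. With mouse series as a term it was 0.9, in a fit that leaves ligated control 3 alone against the DEN controls. Ligated controls 1 and 2 are of another series than the DEN controls, so series and injury cannot be fully told apart. In JNK knockouts 2 members were higher after BDL than after DEN, where 0.77% of all genes were, and 0 were lower, where 0.313% were. No uninjured JNK double knockout liver was measured, so a rise after BDL and a fall after DEN cannot be told apart. Injury and the days since it also differ together. Abca1 was at 9.38, 9.17 and 9.11 after DEN and 9.94, 10.03 and 9.98 after BDL (difference 0.76, SE 0.11, adjusted p = 0.0367). Abcg5 was at 9.42, 9.48 and 9.35 against 10.19, 10.09 and 10.41 (difference 0.82, SE 0.12, adjusted p = 0.0367). The groups stood apart in both genes, but the share of all genes that did so was not counted for this contrast. Abca1 lost the call without DEN liver 3 or without any 1 of the 3 BDL livers (adjusted p from 0.106 to 0.189), and Abcg5 also without DEN liver 1 (0.0602 to 0.189). Both lost it with arrays centred and with a replicate block, where the count of members was 0, and Abcg5 also with all 24 arrays (0.235).

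In the same contrast of JNK knockouts, 6 members were higher and 3 lower by unadjusted limma p under 0.05, where 13.4% of all genes passed in either direction. Hsd17b7 was at −0.74 (SE 0.18, adjusted p = 0.125), Stard4 at −0.59 (SE 0.16, adjusted p = 0.162) and Scarb1 at 0.47 (SE 0.12, adjusted p = 0.159), none of them called. Abcg8 was at 0.5 (SE 0.12, adjusted p = 0.13). Array weights called all 4, with adjusted p of 0.0204 for Hsd17b7, 0.00817 for Stard4, 0.0196 for Scarb1 and 0.0093 for Abcg8, and also Mvd at −0.49 (0.0429). Of the other sterol genes Ces1d was lower after BDL than after DEN, by 1.22 (SE 0.19, adjusted p = 0.0428). Of 10 stellate cell and fibroblast markers 4 were called higher after BDL than after DEN, and of 14 macrophage markers 1. Their part was not tested.

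The difference between the JNK effect after BDL and that after DEN was tested as an interaction over 12 arrays, and 0 members were called, where 0.0478% of all genes were. By unadjusted limma p under 0.05 2 were higher, where 7.11% of all genes passed. They were Abcg8 at 0.98 (SE 0.22, adjusted p = 0.257) and Abcg5 at 0.97 (SE 0.32, adjusted p = 0.568). With array weights Abcg8 was called at 1.14 (adjusted p = 0.0337). For the 17 synthesis enzymes the median was 0.17. Their intervals were wide, as in Idi1 from −2.15 to 1.45.

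Across the 8 groups, the control livers at 52 weeks had the highest mean for 11 of 17 synthesis enzymes and the NEMO livers at 8 weeks for 5. The lowest mean fell to the NEMO/JNK livers at 52 weeks for 7 and to the ligated controls for 5. The group means of the 17 enzymes together ran from 8.43 in NEMO/JNK livers and 8.57 in ligated controls to 9.05 in NEMO livers and 9.17 in 52-week controls. The ligated controls overlapped every other group, from 7.5 to 9.58. Abcg5 and Abcg8 had their lowest group mean in the 52-week controls, at 8.96 and 8.89, and their highest in the NEMO/JNK livers of that age, at 10.81 and 10.31. Abca1 ranged from 8.72 in NEMO livers to 9.98 in ligated JNK livers. The group means of Apoe lay within 0.06 of one another, near the top of the array scale as given above.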

How the data were processed

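Livers were snap-frozen and total RNA was run on whole-transcript arrays, 1 mouse per array, per the labels' protocols. The authors deposited log2 values made by RMA, per the submitters' processing notes. Its program and settings were not given in the sources used here. Of 35556 probe sets, 21218 had 1 gene symbol, 1881 several and 12457 none in the platform annotation. Those with 1 symbol gave 18820 genes, each by its brightest probe set. Comparisons were fitted in limma 3.58.1 (R 4.3.3) with lmFit and eBayes on the arrays of each pairing, and on 12 arrays for the interaction, with p-values adjusted by Benjamini-Hochberg and a threshold of 0.05. An exact test of 3 against 3 livers cannot go below p = 0.1. The code was tested on simulated data.

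Values per liver are given for called members, and other members by means, ranges and counts; members named beyond that, and the ligated control livers, were chosen after their values were seen. The members and gene lists were chosen with earlier results of these data known. Alternatives were each replicate left out, all 24 arrays in 1 fit, median centring, quantile normalisation, a filter on dim genes, the mean of probe sets, array weights, a replicate block and mouse series as a term. The number of arrays limits the precision.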

Additional observations from a re-analysis of the deposited data

How the results depend on the processing

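Of 287 refits of called member differences 229 kept the call, 58 lost it and 0 changed sign; of 2683 refits of uncalled ones 21 became called. Fitting all 24 arrays left 2 members lower at 52 weeks, 0 higher after BDL and 1 higher in JNK knockouts between injuries, and called 116 genes after BDL, 57 at 8 weeks and 715 between injuries in controls. Centring left 2 members higher at 52 weeks and 0 in JNK knockouts between injuries, and called 10512 genes at 52 weeks. It also moved the split in controls between injuries from 327 higher and 139 lower to 230 and 192. Array weights called 391 genes after BDL, 2 at 8 weeks, 832 between injuries in controls, 2482 in JNK knockouts (4 members higher, 3 lower) and 68 in the interaction (1 member higher). The dim filter called 4 genes in the interaction. Mouse series as a term left 118 genes after BDL, 0 of them members higher, and 15 in controls between injuries. Leaving out 1 replicate gave 2693 to 3671 genes at 52 weeks, 0 to 2 after DEN, 58 to 559 after BDL (0 to 2 members higher), 56 to 858 in controls between injuries, 3 to 1326 in JNK knockouts (0 to 2 members higher, 0 to 1 lower) and 2 to 26 in the interaction. The causes were not tested. The full data called 4048, 0, 255, 0, 466, 204 and 9 genes at 52 weeks, after DEN, after BDL, at 8 weeks, between injuries in controls and in JNK knockouts, and in the interaction.

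Replicate numbers are not known to pair mice, and the main fits do not use them as pairs. Deviations of same-numbered livers correlated by 0.02, 0.04 and 0.02 at 52 weeks, 0.36, 0.3 and 0.04 after DEN, 0.14, −0.07 and 0.04 after BDL and 0.01, −0.02 and −0.07 at 8 weeks; each liver correlated best with its own number in 6 of 6, 4, 3 and 0 cases. A replicate block called 142 genes after BDL, 109 in controls between injuries and 1 in JNK knockouts, where 0 members were higher.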
